A study of Mus musculus with 16 samples.

Results

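The 9 genes described here are Cs, Idh2, Idh3a, Ogdh, Dlst, Mrps36, Suclg1, Fh1 and Mdh2, taken by symbol from a deposited table of 12012 genes, in which each had 1 row. They were measured in leukaemic cells of C57BL/6 mice that had received NOTCH-delta E tumours as secondary transplants. These are T cell acute lymphoblastic leukaemias (T-ALL) that an activated form of Notch drives, and every group carries them. For 3 weeks the mice ate a diet without valine (0 g/kg), the same diet with valine restored to 0.4 or 0.8 g/kg, or a control diet with 8 g/kg. The characteristics in the labels give these doses per kg of diet, while the protocol in the labels speaks of valine in the drinking water. The leukaemic cells were taken from the spleen by sorting for GFP. Libraries were made from their total RNA and from ribosome-protected fragments (RPF), short pieces of mRNA left after nuclease digestion because a ribosome covered them. With 4 diets and 2 libraries for each diet and fraction, T-ALL 2 and T-ALL 3 by label, there were 16 libraries. Whether the numbers stand for tumours, mice or both is not in the labels, so the p-values cover only the spread among these libraries. The series' design text asks how dietary valine alters ribosome occupancy as a readout of translational efficiency.

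The tricarboxylic acid cycle runs in the mitochondrial matrix, where it oxidises acetyl groups to carbon dioxide and passes the electrons to the respiratory chain. Its intermediates also leave the cycle for synthesis of lipids, haem and amino acids, and proliferating T cells feed it with both pyruvate and glutamine. Carbon from valine can enter at succinyl-CoA after conversion to propionyl-CoA. All proteins of the cycle are encoded in the nucleus, translated on cytosolic ribosomes and imported.

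The 9 genes cover most steps of the cycle. Citrate synthase (Cs) joins acetyl-CoA to oxaloacetate, and isocitrate is oxidised by the NADP-dependent enzyme Idh2 or by the NAD-dependent enzyme whose catalytic subunit is Idh3a. The 2-oxoglutarate dehydrogenase complex contains Ogdh (its E1 component), Dlst (E2) and Mrps36, a small protein also called KGD4 that tethers the E3 component to the core and carries a historical name as a mitochondrial ribosomal protein. Suclg1 is the alpha subunit of succinyl-CoA synthetase, Fh1 is fumarase, and Mdh2 is the mitochondrial malate dehydrogenase.

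Levels are in FPKM, which divides fragments by gene length and library size. Whole reads could be recovered from them. An RPF library held 41848 to 205545 such reads and a total RNA library 364685 to 1269364, over the genes of the table. Genes at 0 reads made up 23.5% to 44.6% of the table in RPF and 7.64% to 15.7% in total RNA, so RPF values of weakly expressed genes rest on few reads. All 12 T cell markers in the table were detected in every library, with a summed level of 2509 to 3640 FPKM in total RNA. Sums of neutrophil and red cell markers did not overlap between 0 and 8 g/kg. In total RNA all 11 neutrophil markers were higher and all 8 tested erythroid markers lower at 0 g/kg, with 0 of either called by limma and 10 and 6 at an unadjusted p under 0.05. The 11 neutrophil markers summed to 630 and 300 FPKM of total RNA in the libraries at 0 g/kg, against 27.0 and 29.3 FPKM at 8 g/kg. The 10 erythroid markers summed to 26.2 and 51.2 FPKM at 0 g/kg, against 286 and 703 FPKM at 8 g/kg. Between 0 and 1 neutrophil marker was at 0 in the libraries at 0 g/kg and 3 to 7 were at 0 in those at 8 g/kg, and the erythroid counts were 4 to 8 and 0 to 1. In RPF the neutrophil markers summed to 2766 and 413 FPKM at 0 g/kg, against 27.8 and 54.1 FPKM at 8 g/kg, and in T-ALL 2 at 0 g/kg that exceeded the 2251 FPKM of the T cell markers. The RPF sums of the erythroid markers were 70.7 and 356 FPKM at 0 g/kg, against 601 and 2425 FPKM at 8 g/kg. The part of these markers in the results below was not tested. In bulk samples, fewer cells of a type and less RNA per cell cannot be told apart.

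In total RNA none of the 9 genes passed the test for diet, and Mrps36 had its lowest values in both libraries at 0 g/kg. Mdh2 stood highest, with 229 and 210 FPKM at 0 g/kg, 234 and 235 at 0.4 g/kg, 209 and 256 at 0.8 g/kg and 246 and 222 at 8 g/kg. Cs followed with 133 and 126 FPKM at 0 g/kg, 136 and 129 at 0.4 g/kg, 160 and 133 at 0.8 g/kg and 147 and 157 at 8 g/kg. The values of Mdh2 at 0 and 8 g/kg overlapped, whereas both Cs values at 0 g/kg lay below both at 8 g/kg.

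The isocitrate dehydrogenases overlapped between 0 and 8 g/kg. Idh2 had 137 and 91.6 FPKM at 0 g/kg, 127 and 96.5 at 0.4 g/kg, 116 and 114 at 0.8 g/kg and 112 and 133 at 8 g/kg. The spread of Idh2 within the 0 g/kg diet was wider than any difference between diet means. Idh3a, at a lower level, had 47.6 and 55.2 FPKM at 0 g/kg, 51.9 and 46.3 at 0.4 g/kg, 49.3 and 53.1 at 0.8 g/kg and 49.9 and 59.8 at 8 g/kg.

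Of the 3 members of the 2-oxoglutarate dehydrogenase complex, values at 0 and 8 g/kg overlapped for Ogdh and Dlst and not for Mrps36, and no difference between the members was tested. Ogdh had 83.1 and 66.0 FPKM at 0 g/kg, 87.4 and 82.7 at 0.4 g/kg, 78.3 and 71.5 at 0.8 g/kg and 65.7 and 73.1 at 8 g/kg. Dlst had 59.2 and 54.0 FPKM at 0 g/kg, 57.6 and 45.0 at 0.4 g/kg, 62.5 and 58.2 at 0.8 g/kg and 58.2 and 68.3 at 8 g/kg. Their values at 8 g/kg overlapped those at 0 g/kg. Mrps36 had 17.6 and 6.88 FPKM at 0 g/kg, 32.1 and 46.0 at 0.4 g/kg, 23.6 and 34.7 at 0.8 g/kg and 38.7 and 46.2 at 8 g/kg. Both values at 0 g/kg were the lowest of the 8 libraries.

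For the later steps, too, values at 0 and 8 g/kg overlapped. Suclg1 had 50.8 and 28.7 FPKM at 0 g/kg, 31.0 and 48.2 at 0.4 g/kg, 40.2 and 38.5 at 0.8 g/kg and 41.7 and 45.4 at 8 g/kg, and its highest and lowest values both came from the 0 g/kg diet. Fh1 had 73.2 and 54.9 FPKM at 0 g/kg, 73.2 and 77.8 at 0.4 g/kg, 61.1 and 88.8 at 0.8 g/kg and 76.3 and 72.2 at 8 g/kg.

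**Figure D1:**
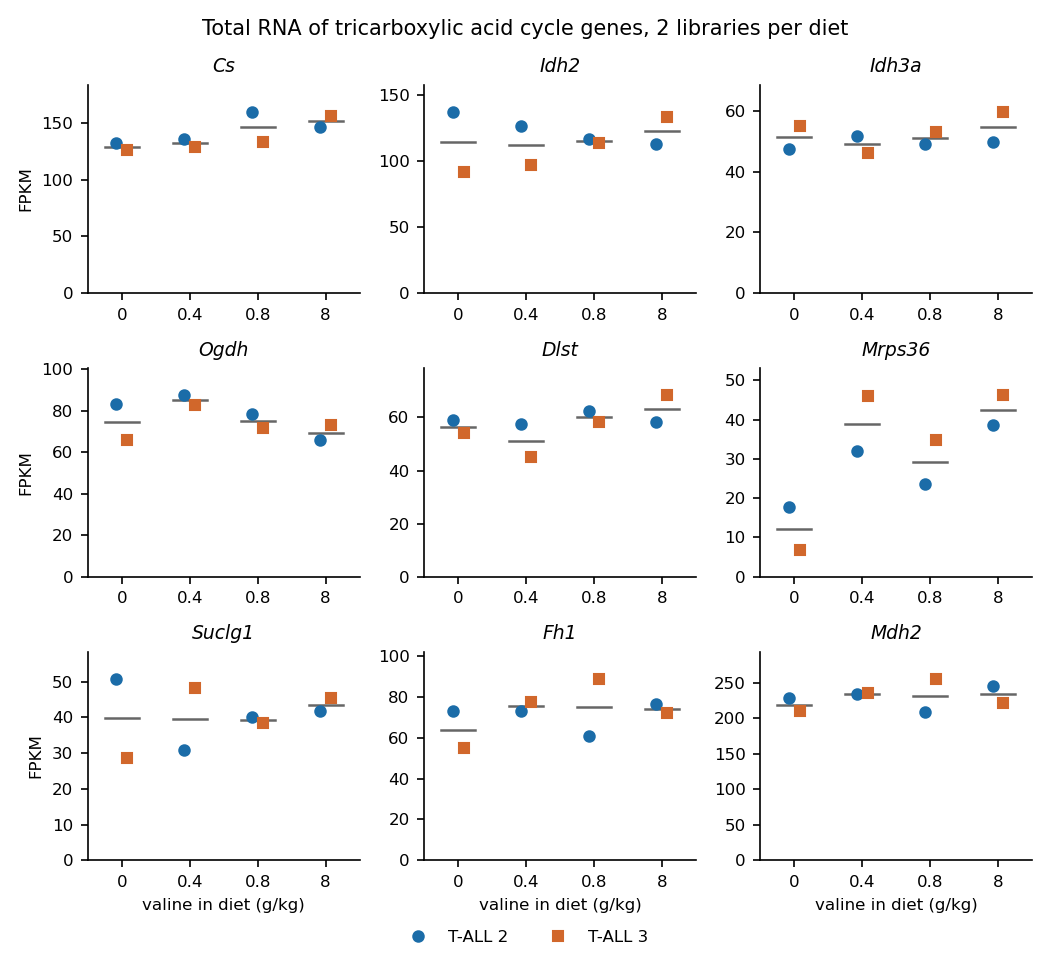
Total RNA level (FPKM, vertical axis from 0) of the 9 genes against valine in the diet (g/kg, evenly spaced categories), with 1 point per library, circles for T-ALL 2, squares for T-ALL 3, and a bar at the mean of 2. Mrps36 at 0 g/kg, with 17.6 and 6.88 FPKM, lies below all its other values, while the points of Mdh2 lie between 209 and 256 FPKM on every diet.

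Ordered by the mean over 8 libraries on the FPKM scale, which accounts for gene length, total RNA levels were 230 ± 16.4 FPKM for Mdh2 (SD, n = 8), 140 ± 12.9 for Cs, 116 ± 16.3 for Idh2, 76.0 ± 8.14 for Ogdh and 72.2 ± 10.4 for Fh1. Dlst followed at 57.9 ± 6.69 FPKM, Idh3a at 51.6 ± 4.40, Suclg1 at 40.6 ± 7.77 and Mrps36 at 30.7 ± 13.9. The ranges of neighbours in this order were apart only between Mdh2 and Cs and between Idh2 and Ogdh, and those of the other neighbours overlapped. Within the same library Cs was above Idh2 in 7 of 8 libraries and Fh1 above Dlst in 7 of 8, and the order of these neighbours was not tested. All 9 lay in the upper part of the table: 97.1% of 10054 tested genes had a lower mean than Mdh2, and 77.5% a lower mean than Mrps36. The SD of log2 values over the 8 libraries was 0.10 for Mdh2, smaller than that of all but 1.63% of the genes, 0.12 for Idh3a and 0.13 for Cs. It was 0.89 for Mrps36, larger than that of 88.8% of the genes.

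Tests of diet used limma on log2(FPKM + 0.5), a scale that understates the change of low genes. A call is a Benjamini-Hochberg adjusted p under 0.05 over all genes tested, and all 9 genes passed the filter of a mean of 1 FPKM in both fractions. In total RNA at 0 against 8 g/kg, limma called 0 of the 9 genes, where the share called among all 10054 genes was 0%. Before adjustment 662 genes, 6.58% of those tested, had a p under 0.05, and voom, run on recovered reads, called 3 genes. Lower at 0 g/kg at that unadjusted threshold was 1 member, Mrps36, where 4.02% of all genes were. The log2 difference was below 0 for 8 of the 9, where 54% of all genes lay below 0, and the median was -0.16 for the 9 and -0.04 for all genes.

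The 8 genes other than Mrps36 had log2 differences between -0.23 and 0.09, with adjusted p-values of 0.859 to 0.958 in limma. Cs averaged 129 ± 4.62 FPKM at 0 g/kg and 152 ± 6.66 at 8 g/kg (SD, n = 2 each), a log2 difference of -0.23 ± 0.15 (SE). The difference was -0.13 ± 0.22 for Idh2 and -0.09 ± 0.18 for Idh3a. It was 0.09 ± 0.17 for Ogdh and -0.16 ± 0.19 for Dlst. It was -0.18 ± 0.30 for Suclg1, -0.23 ± 0.22 for Fh1 and -0.09 ± 0.14 for Mdh2. The 95% intervals of these 8 lay within -0.87 and 0.50 on the log2 scale, and both bounds are those of Suclg1. Others were narrower, such as -0.42 to 0.23 for Mdh2 and -0.56 to 0.10 for Cs. Each of these 8 intervals included 0, so none of the 8 differences could be told from 0 given the spread between libraries. An interval bounds the differences that are compatible with the values under the fit. Both libraries at 0 g/kg were below both at 8 g/kg for 2 of the 9, Cs and Mrps36, where 20.3% of all genes showed that order.

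Mrps36 averaged 12.3 ± 7.60 FPKM at 0 g/kg and 42.4 ± 5.31 FPKM at 8 g/kg (SD, n = 2 each). The log2 difference was -1.89 ± 0.41 (SE), with a 95% interval of -2.83 to -0.95 and adjusted p = 0.313 in limma. By unadjusted p it ranked 48 of 10054 genes, and it did not pass the test. The value rests on few reads: 8 and 2 at 0 g/kg, against 31 and 25 at 8 g/kg. Pooled over libraries, 10 reads at 0 g/kg against 56 at 8 g/kg give a depth-scaled ratio of 0.333, with an exact 95% counting interval of 0.152 to 0.660. That interval leaves out the spread between libraries, so it is no test of diet. Leaving out T-ALL 3 at 0 g/kg gave a log2 difference of -1.24, and leaving out T-ALL 2 at 0 g/kg gave -2.54. Over all 13 alternatives run, the log2 difference lay between these values, and Mrps36 passed the test in none.

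**Figure D2:**
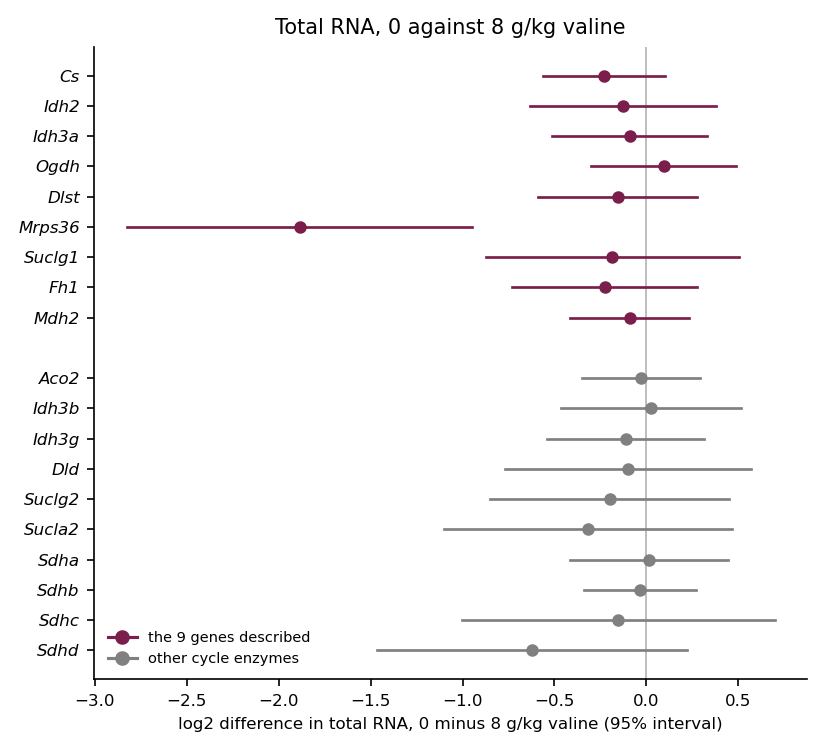
Log2 difference in total RNA, 0 minus 8 g/kg valine (horizontal axis), with the 95% interval from limma, for the 9 genes (purple) and the other 10 enzymes and subunits of the cycle in the table (grey). Mrps36 at -1.89 is the one interval that does not reach 0, and all others cross it.

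At the intermediate doses the mean of Mrps36 lay between those at 0 and 8 g/kg. It had 22 and 22 reads at 0.4 g/kg, with a log2 difference from 8 g/kg of -0.14 ± 0.41, and 14 and 8 reads at 0.8 g/kg, with a difference of -0.55 ± 0.41. Neither difference passed the test. Against the mean of the 0.4 and 0.8 g/kg diets, Mrps36 at 0 g/kg differed by -1.54 ± 0.36 (adjusted p = 0.313 in limma), and by -0.89 when T-ALL 3 at 0 g/kg was left out. This comparison shares its 0 g/kg libraries with the one against the control diet, so the pair are not separate observations.

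Dlst, the E2 component, was taken as the denominator within the same complex, though its own level was not constant. Both its total RNA values at 0.4 g/kg lay below both at 8 g/kg. Its lowest value, 45.0 FPKM, was that of T-ALL 3 at 0.4 g/kg. The ratio of Mrps36 to Dlst total RNA was 0.298 and 0.127 at 0 g/kg, 0.557 and 1.02 at 0.4 g/kg, 0.379 and 0.596 at 0.8 g/kg, and 0.665 and 0.676 at 8 g/kg. The ratio of Ogdh to Dlst was 1.40 and 1.22 at 0 g/kg, 1.52 and 1.84 at 0.4 g/kg, 1.25 and 1.23 at 0.8 g/kg, and 1.13 and 1.07 at 8 g/kg. For Dld, the E3 component shared with other dehydrogenase complexes, the ratio to Dlst was 1.16 and 0.777 at 0 g/kg and 1.12 and 0.744 at 8 g/kg. At 0 against 8 g/kg the ratio to Dlst was lower for Mrps36 in both libraries, higher for Ogdh in both, and overlapping for Dld. Neither Ogdh nor Dlst alone showed such an order in total RNA. In total RNA itself, both libraries at 0 g/kg were lower for 20.3% of all genes and higher for 16.1%. The share of all genes whose ratio to Dlst showed such an order was not counted. With 2 libraries a diet, an exact permutation test of such a ratio cannot give a p below 0.333, and none was run.

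**Figure D3:**
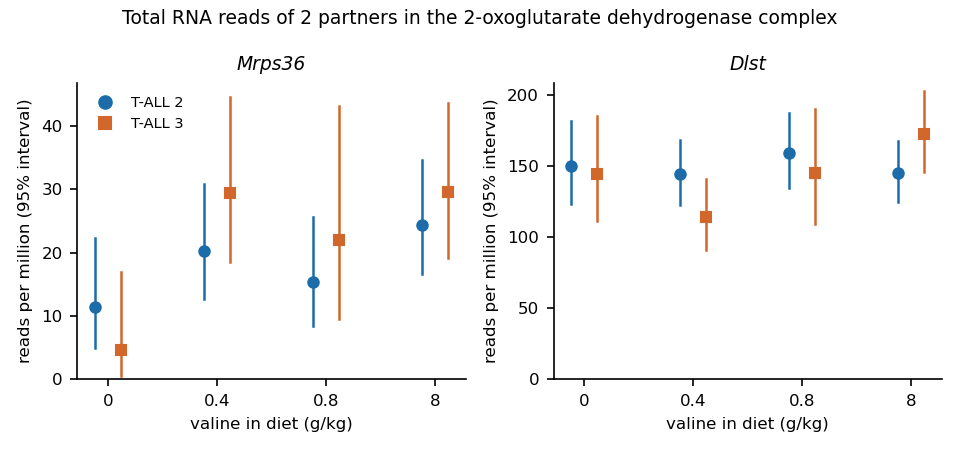
Total RNA reads scaled to library size (vertical axes from 0) of Mrps36 and Dlst against valine in the diet (g/kg), with 1 point per library and an exact 95% Poisson interval that covers counting error only. The Mrps36 intervals at 0 g/kg are 4.90 to 22.4 (T-ALL 2) and 0.566 to 16.9 (T-ALL 3). At 8 g/kg they are 16.6 to 34.7 (T-ALL 2) and 19.1 to 43.6 (T-ALL 3). Of these only 0.566 to 16.9 and 19.1 to 43.6 are apart, and equal T-ALL numbers were not taken as pairs. All Dlst intervals at 0 g/kg overlap those at 8 g/kg.

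The region upstream of these genes is shown for Mrps36, the member with the smallest p for diet in total RNA at 0 against 8 g/kg, and for Dlst, the partner it was set against. The sequences come from RefSeq (GRCm38.p6) and run 5′ to 3′ on the gene's strand over the 250 bases before the start site that the table of promoters uses, which for Dlst lies a few bases inside the gene as positioned here. The window of Mrps36 is chr13:100744660-100744909 on the minus strand and that of Dlst is chr12:85110583-85110832 on the plus strand. Capitals mark matches, on either strand, to the letters CCAAT (the CCAAT box) and GGGCGG (the GC box).
Mrps36: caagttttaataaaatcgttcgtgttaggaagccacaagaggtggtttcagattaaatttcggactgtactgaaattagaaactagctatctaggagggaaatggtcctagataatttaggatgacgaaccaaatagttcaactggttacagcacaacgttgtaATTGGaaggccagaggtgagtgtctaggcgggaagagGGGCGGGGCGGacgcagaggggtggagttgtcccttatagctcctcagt
Dlst: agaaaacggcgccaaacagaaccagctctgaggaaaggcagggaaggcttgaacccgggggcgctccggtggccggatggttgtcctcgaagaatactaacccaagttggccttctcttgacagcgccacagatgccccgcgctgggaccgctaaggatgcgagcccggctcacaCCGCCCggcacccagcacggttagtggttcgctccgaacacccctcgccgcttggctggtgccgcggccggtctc
Mrps36 had 1 CCAAT match and 2 overlapping GC boxes, and Dlst had 1 GC box. Of the 9 genes 8 had a window of 250 bases before to 50 after a start, which for Ogdh meant 6 windows. Only the 250 bases before the start were searched. A gene counts as found if any of its windows matched, whereas the shares given are per window. The counts and shares are therefore in unlike units, most of all for Ogdh. GGGCGG was found for 7 of the 8, against 32.7% of 32851 windows in the reference table, and CCAAT for 5, against 33.8%. The letters TGATGNAA, a core of the element bound by ATF4, the transcription factor of the amino acid response, were found for 0 of the 8, against 3.45% of windows. GTGGGAA, the core bound by RBPJ, the DNA-binding partner of Notch, was found for 2, Cs and Suclg1, against 5.42%. CCGGAAG, a core bound by ETS factors, was found for 0, against 6.91%. These matches describe letters in a window, and gaps in the table of starts were not filled.

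The genes lie on 9 chromosomes (GRCm38.p6). Cs is on chromosome 10 from 128337727 to 128362482, Idh2 on chromosome 7 from 80094845 to 80118608 and Idh3a on chromosome 9 from 54586511 to 54604662. Ogdh is on chromosome 11 from 6291597 to 6359094, Dlst on chromosome 12 from 85110822 to 85134091 and Mrps36 on chromosome 13 from 100735940 to 100744659. Suclg1 is on chromosome 6 from 73248505 to 73276907, Fh1 on chromosome 1 from 175601378 to 175625635 and Mdh2 on chromosome 5 from 135778649 to 135790386. Dlst overlaps Prox2, a homeobox gene with 0.333 to 4.96 FPKM in total RNA, and the sources used here do not say whether reads were counted by strand.

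No member was called on the partial valine diets. At 0.4 against 8 g/kg, limma called 0 of the 9 in total RNA, where the share called among all genes was 0% (0 of 10054, with 311 at an unadjusted p under 0.05 and 0 by voom). The log2 differences ranged from -0.31 to 0.29 with a median of -0.14, against -0.01 for all genes. Both libraries were lower for 2 members, Cs and Dlst, where 19% of all genes showed that order, and higher for 1, Ogdh, where 18.4% did. At 0.8 against 8 g/kg, limma called 0 of the 9, where the share was again 0% (0 of 10054, with 347 at an unadjusted p under 0.05 and 0 by voom). The differences ranged from -0.55 to 0.11 with a median of -0.06, against -0.03 for all genes. Both libraries were lower for 2 members, Suclg1 and Mrps36, where 17.8% of all genes were. Leaving out 1 library at a time gave up to 28 called genes in this comparison, among them 0 of the 9. At 0 g/kg against the mean of 0.4 and 0.8 g/kg, limma called 0 of the 9 (0% of all genes, 685 at an unadjusted p under 0.05, and 8 by voom), with differences of -1.54 to 0.03 and a median of -0.09, against -0.01 for all genes. Ogdh differed by 0.29 ± 0.17 at 0.4 against 8 g/kg, by 0.11 ± 0.17 at 0.8 against 8 g/kg and by -0.11 ± 0.15 at 0 g/kg against the partial diets.

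In the ribosome-protected fraction the same genes were covered by far fewer reads. Mdh2 had 145 and 124 FPKM at 0 g/kg, 192 and 94.3 at 0.4 g/kg, 184 and 220 at 0.8 g/kg and 171 and 161 at 8 g/kg. Ogdh had 145 and 137 FPKM at 0 g/kg, 243 and 121 at 0.4 g/kg, 159 and 132 at 0.8 g/kg and 76.6 and 123 at 8 g/kg. These were the best covered members, Ogdh with 15 to 143 reads per library and Mdh2 with 10 to 62. The Ogdh values at 0 g/kg were above both at 8 g/kg, and the Mdh2 values at 0 g/kg were below both.

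Cs had 94.2 and 31.3 FPKM of RPF at 0 g/kg, 104 and 53.6 at 0.4 g/kg, 103 and 137 at 0.8 g/kg and 89.5 and 74.2 at 8 g/kg. Idh2 had 74.4 and 80.3 FPKM at 0 g/kg, 93.9 and 59.2 at 0.4 g/kg, 93.2 and 46.9 at 0.8 g/kg and 94.2 and 124 at 8 g/kg. Cs overlapped between 0 and 8 g/kg, and Idh2 was lower than both control values on every other diet. The lower Idh2 control value rests on 8 reads, with a 95% counting interval of 3.45 to 15.8 reads. It barely exceeds the 93.9 FPKM at 0.4 g/kg, and these comparisons share the same control libraries. Dlst had 44.1 and 36.0 FPKM at 0 g/kg, 53.1 and 38.3 at 0.4 g/kg, 56.9 and 48.6 at 0.8 g/kg and 61.0 and 26.8 at 8 g/kg. Idh3a had 27.7 and 9.21 FPKM at 0 g/kg, 40.8 and 31.5 at 0.4 g/kg, 47.6 and 48.9 at 0.8 g/kg and 17.5 and 41.1 at 8 g/kg. The Dlst values at 8 g/kg enclosed those at 0 g/kg, and the Idh3a values at 0 and 8 g/kg overlapped.

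Fh1 had 37.9 and 33.6 FPKM of RPF at 0 g/kg, 47.8 and 80.4 at 0.4 g/kg, 56.1 and 38.2 at 0.8 g/kg and 72.0 and 65.6 at 8 g/kg. Both Fh1 values at 0 g/kg lay below both at 8 g/kg, on 9 and 8 reads against 9 and 14. Suclg1 had 16.0 and 7.99 FPKM at 0 g/kg, 32.9 and 16.4 at 0.4 g/kg, 51.7 and 36.4 at 0.8 g/kg and 0 and 40.1 at 8 g/kg. Its 0 is a count of 0 reads in the shallowest library. The RPF reads of Mrps36 numbered 3 and 2 (0 g/kg), 3 and 0 (0.4 g/kg), 0 and 3 (0.8 g/kg), and 0 and 1 (8 g/kg). A count of 0 allows up to 3 reads, so at this depth its ribosome occupancy could not be compared between diets. The 5 reads at 0 g/kg against 1 at 8 g/kg give a depth-scaled ratio of 3.55, with an exact 95% counting interval of 0.397 to 168.

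**Figure D4:**
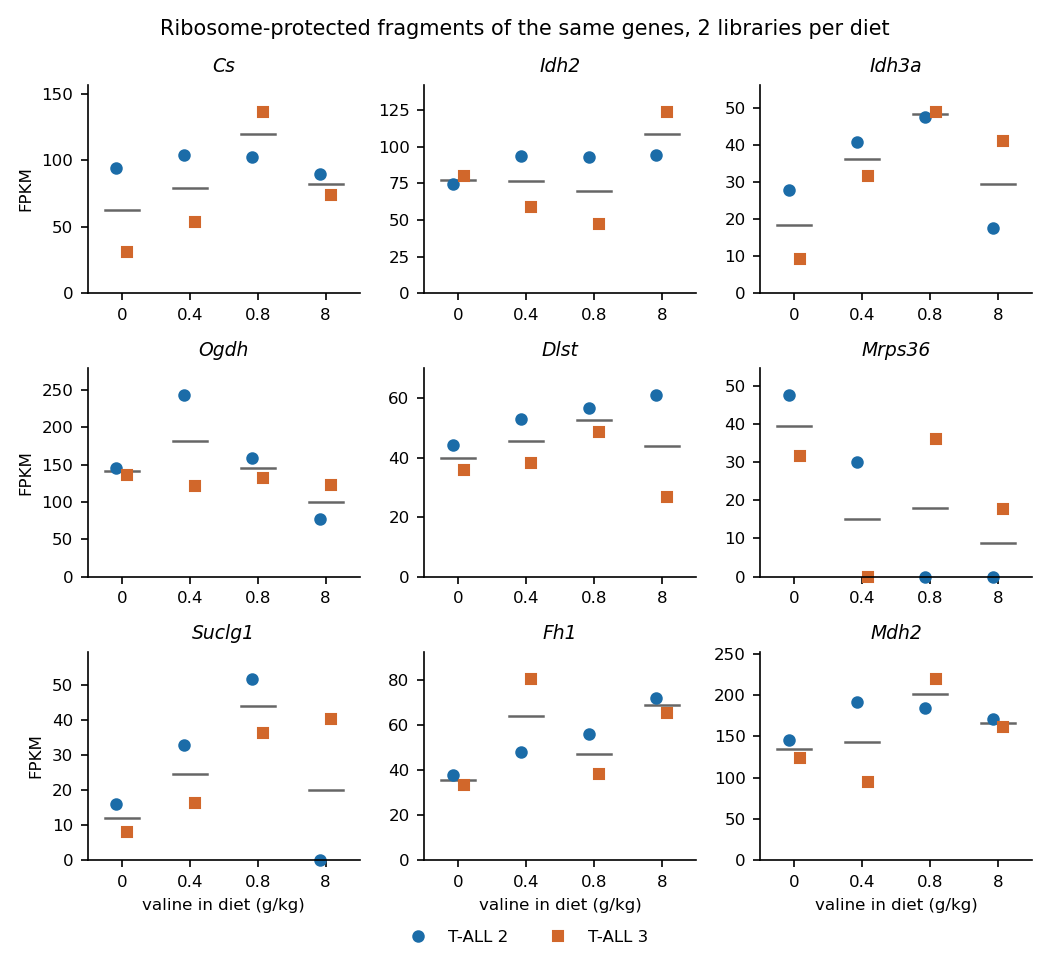
RPF level (FPKM, vertical axis from 0) of the 9 genes against valine in the diet (g/kg, evenly spaced categories), with 1 point per library, circles for T-ALL 2, squares for T-ALL 3, and a bar at the mean of 2. For each gene the SD of log2 values over the 8 libraries is larger than in total RNA. The 2 libraries of a diet still lie closer than in total RNA in some cases, such as Idh2 at 0 g/kg. Mrps36 in 3 libraries and Suclg1 in 1 are at 0 reads.

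None of the 9 passed the test for diet in RPF. At 0 against 8 g/kg, limma called 0 of the 9, where the share called among all genes was 0% (0 of 9718, with 697 at an unadjusted p under 0.05 and 6 by voom). Leaving out 1 library at a time gave up to 56 called genes, among them 0 of the 9. The log2 differences ranged from -0.94 to 3.70 with a median of -0.31, against 0.12 for all genes. The difference was -0.94 ± 0.43 for Fh1 (adjusted p = 0.747 in limma), 0.54 ± 0.43 for Ogdh (adjusted p = 0.818) and 3.70 ± 2.73 for Mrps36 (adjusted p = 0.818). The last value depends on the pseudocount, since it includes a library at 0 reads. The RPF sums of neutrophil and erythroid markers given above differ between the same libraries. Both libraries at 0 g/kg were lower for 3 members, Mdh2, Fh1 and Idh2, where 11.7% of all genes showed that order. They were higher for 2, Ogdh and Mrps36, where 16.7% of all genes were. For Mrps36 that order rests on 3 and 2 reads against 0 and 1. A count of 3 reads in T-ALL 2 at 8 g/kg would be 90.2 FPKM, above both its values at 0 g/kg. The RPF control libraries held fewer reads in all than the RPF libraries at 0 g/kg, 113280 against 159521 for the sum of each pair, and in total RNA the order was the other way, with 1133056 reads at 0 g/kg against 2115525 at 8 g/kg.

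At 0.4 against 8 g/kg limma called 0 of the 9 in RPF, where the share among all genes was 0% (0 of 9718, with 648 at an unadjusted p under 0.05 and 0 by voom), and the differences had a median of 0.16, against 0.08 for all genes. Both libraries were lower for 1 member, Idh2, where 12.7% of all genes were. At 0.8 against 8 g/kg limma called 0 of the 9, where the share was again 0% (0 of 9718, with 542 at an unadjusted p under 0.05 and 0 by voom), and the differences had a median of 0.50, against 0.30 for all genes. Both libraries were higher for 4 members, Cs, Idh3a, Ogdh and Mdh2, where 21.5% of all genes were, and lower for 2, Idh2 and Fh1, where 9.82% were. At 0 g/kg against the mean of the partial diets limma called 0 of the 9, where the share was 0% (0 of 9718, with 437 at an unadjusted p under 0.05 and 16 by voom), with a median of -0.29, against -0.02 for all genes. That count reached 67 genes when 1 library was left out, again with 0 of the 9.

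Set against its own total RNA, Ogdh carried more RPF than the median gene in every pair of libraries, and it was the one member called. Translational efficiency (TE) was taken as the log2 difference of RPF and total RNA between libraries that shared diet and T-ALL number. It was centred on the median gene of the pair. The gene length that FPKM divides by cancels in TE. The share of an mRNA that is coding does not cancel, and its part in these values was not tested. For Ogdh TE was 1.11 and 1.31 at 0 g/kg, 1.75 and 1.09 at 0.4 g/kg, 1.18 and 1.03 at 0.8 g/kg and 0.78 and 1.17 at 8 g/kg. All 8 pairs lay above 0, and Ogdh stood above 70.2% to 95.8% of the tested genes of its pair. Over all diets the difference was 1.18 ± 0.16 (SE, adjusted p = 0.0102 in limma), with a 95% interval of 0.79 to 1.56. Limma called 1 of the 9 genes in this comparison, where the share called among all genes was 11.1% (1041 of 9361). The count of members called is thus no more than that share gives. Ogdh also had the most RPF reads of the 9, 540 over 8 libraries, against 231 for Mdh2. The part of read depth in the call was not tested. Ogdh remained called in all 16 alternatives, with adjusted p-values of 0.00663 to 0.0441.

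The other 8 genes were not called in RPF against total RNA, and their differences were all below 0, as were those of 60.9% of all genes. The median was -0.21 for the 9 and -0.26 for all genes. The partner Dlst stood at -0.04 ± 0.25, with 4 of 8 pairs above 0. The difference was -0.13 ± 0.25 for Fh1, -0.18 ± 0.24 for Idh2, -0.21 ± 0.23 for Mdh2, -0.46 ± 0.31 for Idh3a and -0.48 ± 0.31 for Cs. Mdh2 and Cs each had 1 of 8 pairs above 0. The values of -1.06 ± 0.67 for Suclg1 and -1.70 ± 0.99 for Mrps36 include pairs with 0 RPF reads and depend on the pseudocount. Adjusted p-values of the other 8 lay between 0.278 and 0.923 in limma.

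In RPF alone, the mean level over 8 libraries was 161 ± 39.8 FPKM for Mdh2 (SD, n = 8), 142 ± 47.3 for Ogdh, 85.8 ± 32.6 for Cs and 83.3 ± 23.9 for Idh2. Fh1 had 53.9 ± 17.4 FPKM, Dlst 45.6 ± 11.5, Idh3a 33.1 ± 14.3, Suclg1 25.2 ± 17.7 and Mrps36 20.3 ± 18.7. The ranges of all neighbours in this order overlapped. Ogdh stood above Cs and Idh2 in this order and below them in total RNA, and the order of the other 8 was the same in both fractions. The ratio of Ogdh to Dlst in RPF was 3.29 and 3.80 at 0 g/kg, 4.57 and 3.16 at 0.4 g/kg, 2.80 and 2.72 at 0.8 g/kg and 1.26 and 4.58 at 8 g/kg.

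**Figure D5:**
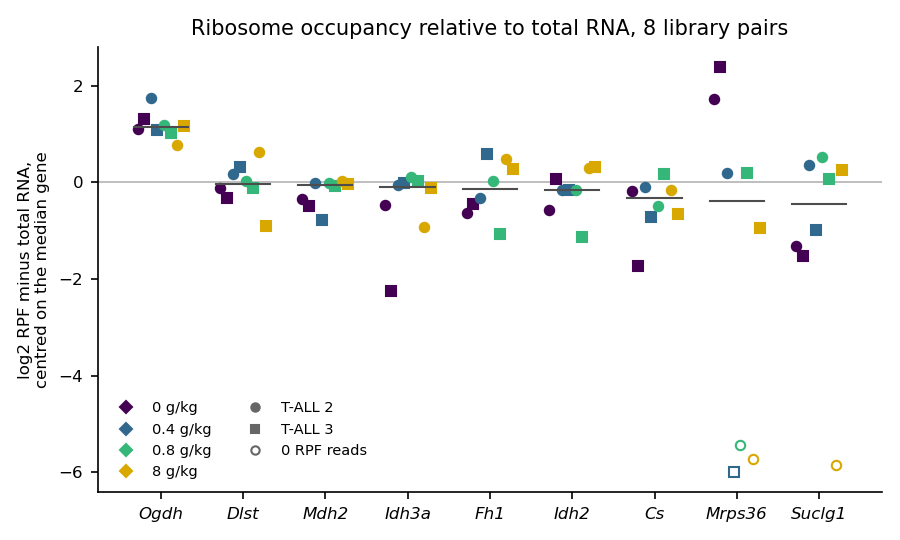
Log2 RPF minus log2 total RNA per pair of libraries (vertical axis), centred on the median gene of that pair, for the 9 genes, with diets by colour, circles for T-ALL 2, squares for T-ALL 3, open symbols for pairs with 0 RPF reads, and a bar at the median of 8 pairs. Ogdh lies between 0.78 and 1.75 in all 8 pairs, whereas the other genes lie on both sides of 0.

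No member was called for diet in TE. At 0 against 8 g/kg limma called 0 of the 9, where the share called among all genes was 0% (0 of 9361, with 616 at an unadjusted p under 0.05). The median difference was -0.21 for the 9 and 0.20 for all genes. Ogdh differed by 0.44 ± 0.50 (adjusted p = 0.934 in limma). Mrps36, with lower total RNA and 3 and 2 RPF reads against 0 and 1, differed by 5.59 ± 2.86 (adjusted p = 0.816 in limma), a value set by the pseudocount. TE at 0.4 against 8 g/kg, at 0.8 against 8 g/kg and at 0 g/kg against the partial diets also had 0 of the 9 called, with 0% of 9361 genes called in each and 625, 583 and 431 at an unadjusted p under 0.05. The median differences of the 9 were 0.46, 0.47 and -0.31 in that order, against 0.14, 0.36 and -0.03 for all genes.

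The remaining enzymes of the cycle were also without a call. Of 10 further enzymes and subunits, 0 were called in total RNA at 0 against 8 g/kg. Of these, 8 were lower and 2 higher, where 54% of all genes were lower, and the median log2 difference was -0.10. Sdhd, a membrane subunit of succinate dehydrogenase, had 20.4 and 46.8 FPKM at 0 g/kg, against 58.4 and 39.2 FPKM at 8 g/kg, a difference of -0.62 ± 0.37. Sucla2, Suclg2 and Idh3g, the ADP-forming and GDP-forming beta subunits of succinyl-CoA synthetase and a regulatory subunit of the NAD-dependent isocitrate dehydrogenase, differed by -0.32 ± 0.34, -0.20 ± 0.29 and -0.11 ± 0.19. None of these 4 had an unadjusted p under 0.05. In RPF at 0 against 8 g/kg 0 of the 10 were called, 6 lower and 4 higher, with a median of -0.14.

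Genes that supply or drain the cycle were likewise without a call in total RNA at 0 against 8 g/kg. Of 11 tested genes of pyruvate entry, 9 were lower and 2 higher, where 54% of all genes were lower, with a median of -0.23. Pdk1, a kinase that inhibits pyruvate dehydrogenase, differed by -0.50 ± 0.33, and the E2 component Dlat by 0.49 ± 0.26. In RPF against total RNA over all diets, limma called 1 of 10 tested genes of this list, where 11.1% of all genes were called. It was Mpc1, a subunit of the mitochondrial pyruvate carrier, lower at -5.17 ± 0.47 (adjusted p = 0.00505 in limma). Its RPF value was at 0 reads in 7 of 8 libraries, so the size of that difference is set by the pseudocount. Of the 5 genes of glutamine entry, 3 had an unadjusted p under 0.05, where 6.58% of all genes did, and none passed the adjusted threshold. The glutamine transporter Slc1a5 had 82.0 and 106 FPKM at 0 g/kg, against 66.4 and 63.7 FPKM at 8 g/kg. The mitochondrial alanine transaminase Gpt2, which converts glutamate to 2-oxoglutarate, had 7.21 and 3.31 FPKM at 0 g/kg, against 0.721 and 1.78 FPKM at 8 g/kg. The mitochondrial aspartate transaminase Got2 had 117 and 72.4 FPKM at 0 g/kg, against 135 and 144 FPKM at 8 g/kg. The log2 differences were 0.51 ± 0.18, 1.70 ± 0.58 and -0.60 ± 0.22 in that order (adjusted p = 0.646, 0.646 and 0.684 in limma), and they differed in sign.

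Of the 4 genes through which propionyl-CoA from valine reaches succinyl-CoA, 0 were called, with 3 higher, 1 lower and a median of 0.27. Their differences were 0.43 ± 0.29 for Pcca and -0.49 ± 0.30 for Pccb, the subunits of propionyl-CoA carboxylase, 0.51 ± 0.54 for the epimerase Mcee and 0.11 ± 0.40 for the mutase Mut. Of 10 cytosolic counterparts and export genes, 0 were called, with 6 lower, 4 higher and a median of -0.09. Mdh1, the cytosolic malate dehydrogenase, had 103 and 109 FPKM at 0 g/kg, against 151 and 132 FPKM at 8 g/kg, a difference of -0.42 ± 0.16 (adjusted p = 0.702 in limma). ATP citrate lyase (Acly), which splits exported citrate, differed by -0.39 ± 0.17. In RPF against total RNA over all diets, 11.1% of all genes were called. Of the 10 tested genes of this list limma called 1, Acly, at 0.80 ± 0.17 (adjusted p = 0.0302). Of 3 tested subunits of related ketoacid dehydrogenases limma called 1, Bckdha, at 0.76 ± 0.18 (adjusted p = 0.0441). In total RNA at 0 against 8 g/kg 0 of the 4 such subunits were called, with 2 lower, 2 higher and a median of 0.09.

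Because Mrps36 bears a mitochondrial ribosomal name, it was set beside 29 proteins of the small mitochondrial ribosomal subunit. Of these, 0 were called in total RNA at 0 against 8 g/kg. Of the 29, 23 were lower and 6 higher, where 54% of all genes were lower, and the median log2 difference was -0.21. At an unadjusted p under 0.05 in limma, 4 of the 29 were lower, where 4.02% of all genes were. Those with the smallest p were Mrps34, with 19.7 and 19.2 FPKM at 0 g/kg against 38.5 and 37.1 FPKM at 8 g/kg, and Mrps11, with 19.0 and 9.13 FPKM at 0 g/kg against 34.8 and 31.9 FPKM at 8 g/kg. Their differences were -0.94 ± 0.22 and -1.30 ± 0.33 (adjusted p = 0.346 and 0.402 in limma). Mrps36 at -1.89 lay below all 29, though its interval overlaps that of Mrps11.

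Across the 8 total RNA libraries, genes whose pattern was most like the mean of the 9 included Oxa1l, Atp5h, Fabp5 and Ywhab, with Pearson r between 0.964 and 0.972 among 5521 genes with a mean of at least 10 FPKM. Those most like Mrps36 alone were Scd3, Fabp5, Pdap1, Pole3 and Orc2, with r between 0.937 and 0.975. The points share libraries and depth, r this high is the upper end of a search over all these genes, and the mean of the 9 is itself moved most by Mrps36, so these names are a description only.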

How the data were processed

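The deposited table gives FPKM per gene for 16 libraries with replicates kept apart, and per the submitters' processing notes the tools were edgeR 3.14.0, STAR 2.5.0c, Bowtie2 2.3.4 and cutadapt 1.18, on mm10/GRCm38. What each tool did, how reads were counted and the FPKM formula were not given in the sources used here. In each library the values above 0 were whole multiples of 1 read, so reads were recovered from them (100% of 149988 values whole within 0.02 reads). Intervals and floors from these reads cover counting error only, since PCR copies are not independent molecules.

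Groups follow the labels. Each fraction was fitted with limma 3.58.1 (R 4.3.3, trended moderation) on log2(FPKM + 0.5) with diet as a 4-level factor over 8 libraries, for genes with a mean of at least 1 FPKM, two-sided, with Benjamini-Hochberg adjustment over all genes tested (10054 in total RNA, 9718 in RPF, 9361 for TE). Standard errors of log2 differences come from this moderated variance, not from the 2 libraries of a diet. The comparison of RPF with total RNA tested the mean of the centred pair differences over diets against 0. Comparisons with 8 g/kg share their 2 control libraries. The recovery and the fits were tested on simulated data.

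Alternatives were pseudocounts of 0.1 and 1, no filter or a filter of 5 FPKM, a replicate block, rescaling by median of ratios, moderation without trend, voom on recovered reads, reads thinned to equal depth, and leaving out each library in turn. The members and the gene lists were chosen with earlier results of these data known. All 9 members are named, with up to 4 genes of each other list, those past the test and then those with the smallest p at 0 against 8 g/kg in total RNA. Fitted differences are given singly for all members at 0 against 8 g/kg in total RNA and in RPF against total RNA, and elsewhere for members chosen after their values were seen, with ranges and medians for the rest. The motifs and the promoters printed were also chosen after values were seen. A gene that the rule for like patterns takes is not reported here.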

Additional observations from a re-analysis of the deposited data

How the results depend on the processing

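Counts of called genes were unstable although limma's main count was 0 for each diet comparison. With libraries rescaled, 1 gene was called in total RNA at 0 g/kg against the partial diets. With voom the counts were 3 (total RNA, 0 against 8 g/kg), 8 (total RNA, 0 against partial), 6 (RPF, 0 against 8 g/kg) and 16 (RPF, 0 against partial). With thinned reads they were 2, 1 and 3 in RPF at 0 against 8, 0.8 against 8 and 0 against partial, and 629 instead of 1041 in RPF against total RNA. Leaving out 1 library gave 0 to 2, 0 to 28 and 0 to 8 genes in total RNA (0 against 8, 0.8 against 8, 0 against partial), 0 to 56 and 0 to 67 in RPF (0 against 8, 0 against partial) and 294 to 487 in RPF against total RNA. None of these settings changed the call of a member: over 1566 refits of the 9 genes in 13 comparisons, 0 calls changed. The sign changed in 99 of the refits, all of differences that passed the test in neither setting. These refits fell in 58 of the 117 combinations of a member and a comparison. In total RNA it was 21 of 36 combinations, in RPF 17 of 36 and in TE 17 of 36. For those combinations the direction depended on the setting. With thinned reads Mdh2 was 0.10 in total RNA at 0 against 8 g/kg, and Idh2 0.041 and Dlst 0.22 in RPF against total RNA. Without 1 library, total RNA at 0 against 8 g/kg ranged from -0.42 to 0.16 for Idh2, -0.22 to 0.038 for Idh3a, -0.070 to 0.26 for Ogdh and -0.59 to 0.22 for Suclg1. Ogdh ranged from -0.27 to 0.059 at 0 against partial, Mrps36 from -0.39 to 0.12 at 0.4 against 8 g/kg, and in RPF against total RNA Fh1 ranged from -0.27 to 0.0025 and Dlst from -0.23 to 0.15. The cause was not tested. Deviations of same-numbered libraries correlated at -0.04 to 0.25 in total RNA (0.21 between 0 and 8 g/kg) and -0.02 to 0.07 in RPF over 6 pairs of diets. Not every pair was above 0.1, so the T-ALL numbers were not taken as pairing. With the replicate block Mrps36 stayed at -1.89 (adjusted p = 0.343 in limma) in total RNA at 0 against 8 g/kg, Ogdh stayed called in RPF against total RNA (adjusted p = 0.0226), and 705 genes were called there. RPF depth limits Mrps36, Suclg1 and Idh3a most, with 0 to 3, 0 to 30 and 2 to 24 reads per library.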
